A study of Mus musculus with 111 samples.

Results

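Expression of the myostatin, activin and TGF-beta pathway was followed through 10 genes in mouse gastrocnemius muscle: the ligand genes Mstn, Inhba, Inhbb and Tgfb1, the antagonists Fst and Fstl3, the activin type II receptors Acvr2a and Acvr2b, and the Smads Smad3 and Smad7. A gene was measured by the probe sets whose only gene symbol in the platform annotation was its own, and the probe set with the highest mean signal stood for it. By this rule 9 of the 10 genes had a probe set, among 18194 genes with a probe set in all, and all 9 passed the filter on low signals, which 16029 genes passed. Mstn itself was not analysed here.

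The ligands of this pathway are secreted dimers. Myostatin and the activins bind Acvr2a or Acvr2b and TGF-beta binds its own type II receptor, and the receptor complex then phosphorylates Smad2 and Smad3, which enter the nucleus and regulate transcription. Follistatin (Fst) and follistatin-like 3 (Fstl3) bind activins and myostatin outside the cell, and Smad7 is an inhibitory Smad whose gene is itself induced by the pathway. In skeletal muscle, myostatin and activin signalling through Acvr2b limits muscle mass, and TGF-beta is a driver of fibrosis and a product of inflammatory cells.

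All animals were male C57BL/6 mice, 8 weeks old at treatment, with no genetic modification named. In the casting cohort the right hindlimb was held in a cast and the left, uncast leg was the control, with 10, 7 and 9 cast and 9, 8 and 9 uncast muscles at days 2, 7 and 14. In the tenotomy cohort 1 Achilles tendon was cut under anaesthesia, and 5, 7 and 5 muscles of each leg were profiled at those days. Sham mice had the tendon exposed and handled but left whole (3, 7 and 8 right muscles), and 7 right muscles came from naive mice with no procedure. In all, 111 muscles of 70 mice were each hybridised to an Affymetrix array, and 41 mice gave both legs (25 in casting, 16 in tenotomy). The operated leg in the tenotomy cohort is stated in conflicting ways: the sample labels call the left leg tenotomy and the right leg control, whereas the text on the study's design places the cut on the right. The legs are therefore named here by side and label, differences are left minus right, and every sign of this leg comparison turns under the reading of the design text.

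The deposited signals had been scaled to a common trimmed mean near 100 on every array (99.955 to 99.965), so they are relative levels. In naive muscle all 10 genes of a list defining fast fibres were above the array's 40th percentile in every one of the 7 arrays, led over the series by Tnnt3 and Mylpf. Their summed signal was 142637 to 188300 in naive muscle and 45136 to 160300 in the casting cohort. Cohort cannot be told apart from procedure when casting, tenotomy, sham and naive groups are set against each other. A difference in bulk muscle may reflect fewer cells of a type or less RNA per cell, which cannot be told apart.

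The promoters of 3 genes with leg differences past the test are shown: Tgfb1 and Smad3 for the legs of the tenotomy cohort, and Acvr2a for the legs of the casting cohort. Each sequence is the 250 bases directly before the gene's annotated start, on the gene's strand, from RefSeq (GRCm38.p6), at chr7:25686752-25687001 (plus strand) for Tgfb1, chr9:63757995-63758244 (minus strand) for Smad3 and chr2:48813859-48814108 (plus strand) for Acvr2a. Capitals mark GC boxes, the letters GGGCGG on either strand.
Tgfb1: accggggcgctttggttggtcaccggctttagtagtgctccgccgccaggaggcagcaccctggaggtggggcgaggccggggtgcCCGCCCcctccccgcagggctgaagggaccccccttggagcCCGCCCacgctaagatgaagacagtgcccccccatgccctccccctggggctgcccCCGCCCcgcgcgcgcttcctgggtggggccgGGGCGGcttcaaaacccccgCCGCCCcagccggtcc
Smad3: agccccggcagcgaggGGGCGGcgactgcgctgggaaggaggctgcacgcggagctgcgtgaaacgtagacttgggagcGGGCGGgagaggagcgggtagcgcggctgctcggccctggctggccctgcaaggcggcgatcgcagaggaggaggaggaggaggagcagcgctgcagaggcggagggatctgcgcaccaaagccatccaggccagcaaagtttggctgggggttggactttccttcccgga
Acvr2a: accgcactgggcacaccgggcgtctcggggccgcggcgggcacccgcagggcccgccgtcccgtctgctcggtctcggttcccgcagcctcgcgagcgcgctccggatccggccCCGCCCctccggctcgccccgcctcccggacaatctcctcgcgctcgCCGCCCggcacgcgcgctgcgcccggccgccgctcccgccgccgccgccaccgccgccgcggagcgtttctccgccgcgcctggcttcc
The Tgfb1 window held 5 GC boxes and the Smad3 and Acvr2a windows 2 each, and their GC contents were 75.2%, 69.2% and 82%. At least 1 GC box was present in 32.7% of 32851 promoter windows of the same length. The Smad box (CAGAC on either strand; neither motif contains the other) was found once in the Acvr2a window and not in the Tgfb1 or Smad3 window, against 42.2% of all windows. These matches describe letters in the windows and not sites of binding.

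**Figure D1:**
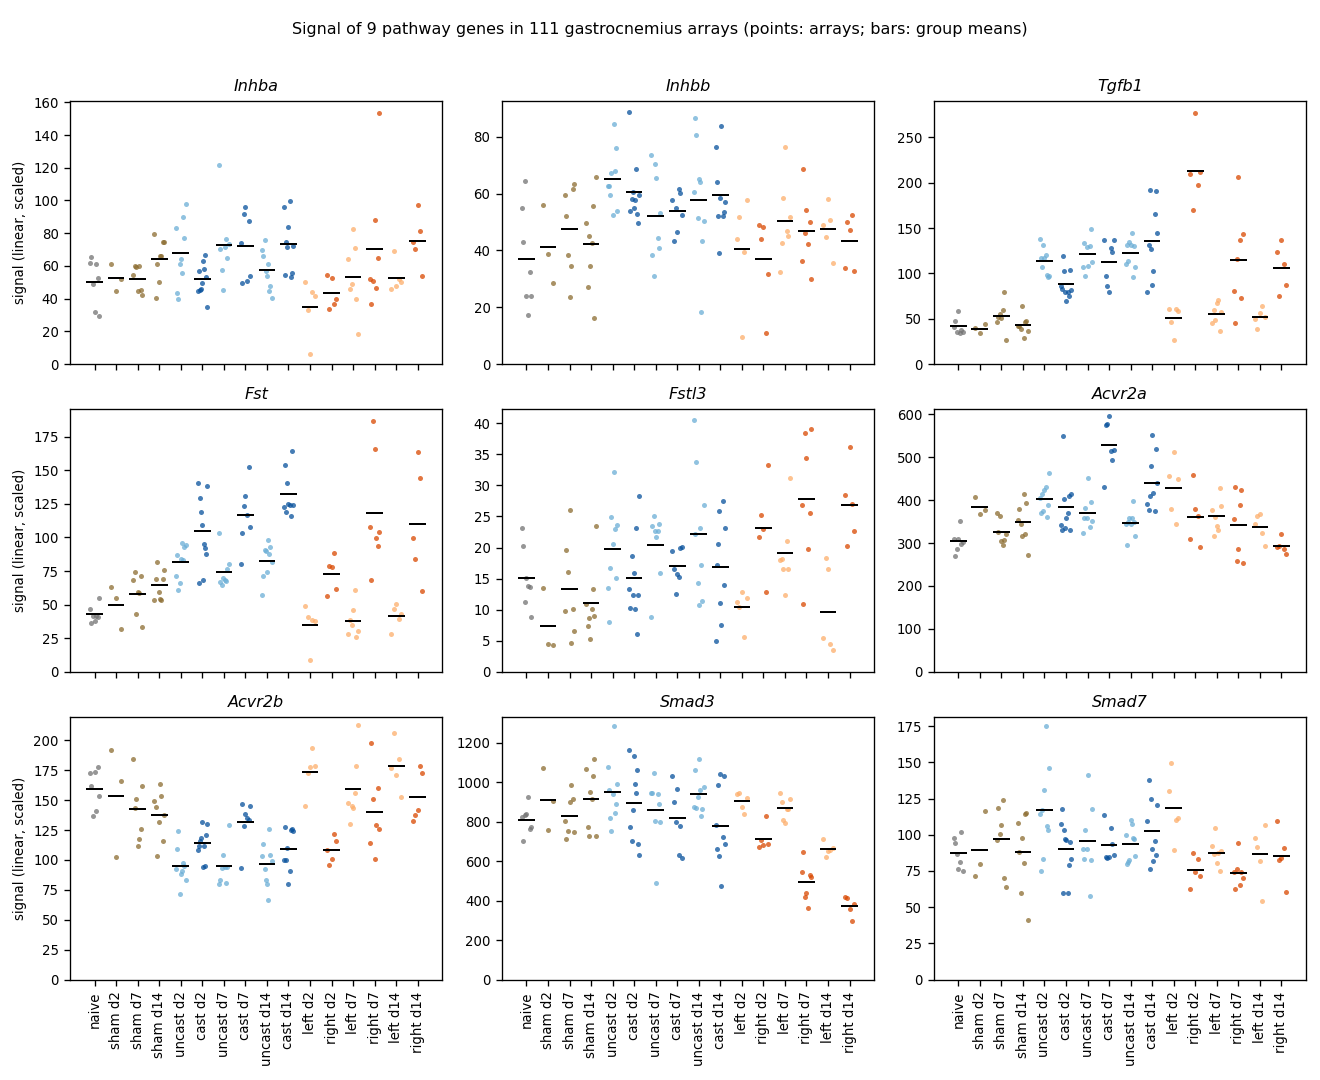
Scaled linear signal (y axis) of the 9 measured genes in the 16 groups (x axis); each point is 1 array (1 muscle) and each bar a group mean. In the tenotomy cohort, "left" is the leg labelled tenotomy and "right" the leg labelled control. Tgfb1 was highest in the right legs at day 2 (mean 213), and Smad3 was lowest in the right legs at day 14 (mean 375).

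Among the genes plotted by group, Tgfb1, Fst and Fstl3 had the widest spread of group means when taken as a fold. Between the highest and lowest of the 16 group means, Tgfb1 differed 4.99-fold, Fst 3.84-fold, Fstl3 2.84-fold, Smad3 2.51-fold and Inhba 2.31-fold. Acvr2b, Inhbb, Acvr2a and Smad7 differed by less, 1.86-fold, 1.84-fold, 1.79-fold and 1.56-fold. When the 16 group means of a gene were ordered, neighbours seldom differed by more than the larger of their SDs (log2 scale): this held for 2 of 15 neighbouring pairs for Tgfb1, 2 of 15 for Smad3, 1 of 15 for Acvr2a and 0 of 15 for the other 6 genes.

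In the casting cohort the receptors Acvr2a and Acvr2b and the antagonist Fst were higher in cast legs than in uncast legs, each past the test at 2 of 3 days. At day 2, Acvr2b was higher and Smad7 lower in the cast leg, 2 of 9 members, where 24.3% of all tested genes were called (11.0% higher, 13.3% lower). At day 7 Acvr2a, Acvr2b and Fst were higher and none was lower (3 of 9, background 8.77%, of which 4.22% higher and 4.55% lower). At day 14 Acvr2a and Fst were higher and Smad3 was lower (3 of 9, background 13.2%, of which 7.17% higher and 6.04% lower). The median difference of the 9 members was -0.10, -0.01 and 0.11 on the log2 scale at days 2, 7 and 14, against -0.03, 0.01 and 0.04 over all tested genes.

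In the tenotomy cohort the ligand Tgfb1 and the antagonists Fst and Fstl3 were lower in the left leg (labelled tenotomy) than in the right leg (labelled control), and Smad3 was higher. At day 2, Acvr2b, Smad3 and Smad7 were higher and Fst, Fstl3 and Tgfb1 lower in the left leg, 6 of 9 members, where 36.7% of all tested genes were called (15.9% higher, 20.8% lower). At day 7 Smad3 was higher and Fst and Tgfb1 were lower (3 of 9, background 32.9%, of which 14.6% higher and 18.3% lower). At day 14 Smad3 was higher and Fst, Fstl3 and Tgfb1 were lower (4 of 9, background 23.2%, of which 9.71% higher and 13.5% lower). The medians of the 9 members were 0.09, 0.10 and 0.02, against -0.02, 0.00 and -0.02 over all tested genes.

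**Figure D2:**
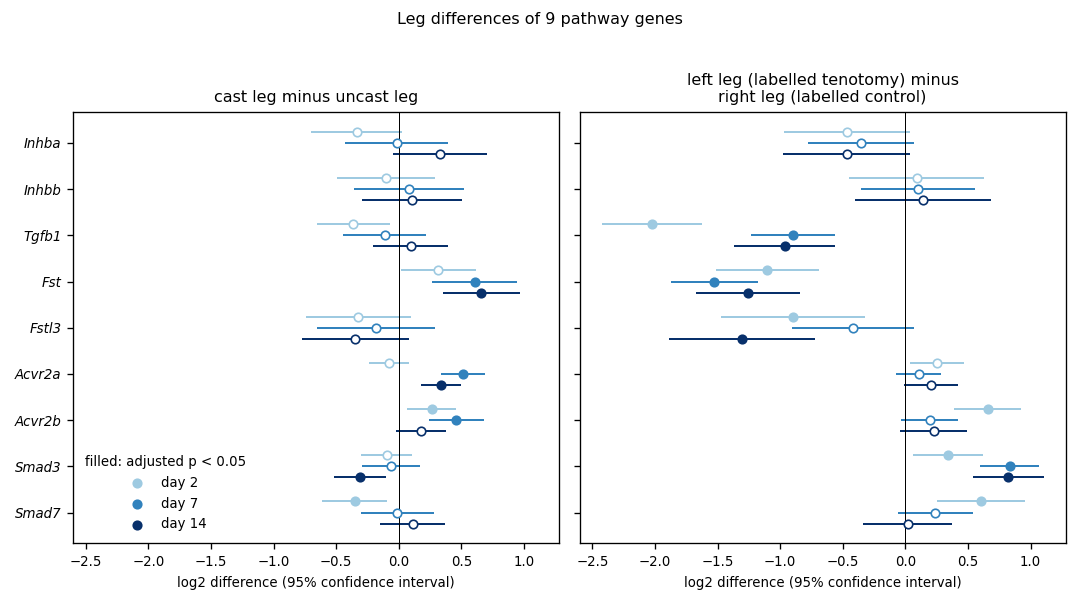
Fitted log2 difference between legs (x axis, with 95% confidence interval) of each gene (y axis) at days 2, 7 and 14, for cast minus uncast legs and for left (labelled tenotomy) minus right (labelled control) legs. Filled points passed an adjusted p of 0.05; Fst lies to the right of 0 in the casting panel and to the left of 0 in the tenotomy panel at every day.

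Among the ligands, Tgfb1, which encodes TGF-beta 1, showed the largest leg difference of any member on the probe sets used. In the tenotomy cohort at day 2, the 5 right legs had signals of 210, 169.9, 277.5, 197.4 and 211.7, and the 5 left legs 61.3, 46.4, 26.7, 60.8 and 58.1. All right legs lay above all left legs. The left minus right difference was -2.03 (log2, SE 0.201, adjusted p = 4.12e-15), and the left leg was lower in 5 of 5 mice. It was -1.36 when all probe sets of a gene were averaged, and -0.68 on the second Tgfb1 probe set. That probe set differed less than the second Fst probe set, which gave -1.70 at day 14.

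At day 7 the Tgfb1 signal ran from 45.6 through a median of 116 to 206.9 in the right legs and from 36.3 through 57.6 to 70.7 in the left legs. The groups overlapped, through right legs whose signal was no higher than that of a left leg. The difference was -0.90 (SE 0.170, adjusted p = 8.57e-06), with the left leg lower in 7 of 7 mice, and it shrank to -0.53 when all probe sets of a gene were averaged. In single mice the left minus right difference ran from -5.8e-04 to -1.58. The second Tgfb1 probe set, of lower signal, gave -0.17 at that day.

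At day 14 the right legs had Tgfb1 signals of 123, 74.7, 136.5, 110.1 and 87.3, and the left legs 49.3, 39.1, 56.2, 64.1 and 52.3. The groups lay apart, with a difference of -0.96 (SE 0.203, adjusted p = 1.26e-04), and the left leg was lower in 4 of 4 mice with both legs. The leg difference at day 14 was 1.06 less negative than at day 2 (SE 0.286, adjusted p = 0.00846), a contrast called for 8.15% of all tested genes and for no other member.

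Against sham muscle, the right legs were the ones that differed past the test in Tgfb1, with overlapping groups at day 7. The signal in sham muscle was 34.0 to 44.4 at day 2, 26.8 to 79.6 at day 7 and 28.8 to 64.1 at day 14. The right legs were higher than sham by 2.32 (SE 0.245, adjusted p = 9.60e-14), 0.97 (SE 0.179, adjusted p = 2.97e-06) and 1.23 (SE 0.191, adjusted p = 7.27e-08) at days 2, 7 and 14. The left legs differed from sham by 0.29, 0.08 and 0.27, with adjusted p = 0.525, 0.823 and 0.357. These comparisons share the sham arrays.

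Casting gave a smaller Tgfb1 difference. At day 2 the signal ran from 69.4 through 82.2 to 119.5 in cast legs and from 96.2 through 117 to 137.6 in uncast legs. The groups overlapped. The difference was -0.36 (SE 0.147), the cast leg being lower in 9 of 9 mice, with an adjusted p = 0.0576 that missed the threshold, and 5 of 11 alternative settings put it past the threshold. At days 7 and 14 the differences were -0.11 (95% confidence interval -0.44 to 0.21) and 0.09 (-0.20 to 0.39). The second Tgfb1 probe set gave a larger value at day 14, 0.48 (SE 0.178), above that interval. With all probe sets averaged the day 14 difference was 0.29, and 0 of 11 alternative settings put it past the threshold.

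Both legs of cast mice had more Tgfb1 signal than naive muscle, in which it was 34.8 to 58.8. Uncast legs were higher by 1.38, 1.46 and 1.48 at days 2, 7 and 14, and cast legs by 1.02, 1.35 and 1.57, with no overlap of the groups and adjusted p of at most 1.71e-07. These comparisons share the 7 naive arrays, and casting and naive mice were separate cohorts.

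Inhba and Inhbb encode the beta subunits of activin A and activin B. Neither passed the test between legs in either model at any day. Inhba ran from 34.8 to 121.7 in the casting cohort and from 6.11 to 153.3 in the tenotomy cohort. Its left minus right difference was -0.46, -0.35 and -0.47 at days 2, 7 and 14 (adjusted p = 0.152, 0.213 and 0.191), and without left replicate 3, which had a signal of 6.11, the day 2 value was -0.02. Its cast minus uncast difference was -0.34, -0.02 and 0.33 (adjusted p = 0.194, 0.983 and 0.270).

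On the probe set used, Inhbb leg differences lay between -0.10 and 0.14 in both models, with confidence intervals that reached from -0.49 to 0.68. Single arrays turned the day 2 value of the tenotomy cohort, 0.09 with all arrays: it was -0.25 without right replicate 4 and 0.49 without left replicate 3, which had a signal of 9.60 (adjusted p = 0.529 and 0.162). Its signals in naive muscle ran from 17.3 through 32.3 to 64.3, against 52.3 through 62.6 to 84.5 in uncast legs at day 2. The groups overlapped, and the uncast legs were higher by 0.85 (SE 0.227, adjusted p = 0.00221). Cast legs exceeded naive muscle by 0.75 at day 2 and 0.72 at day 14 (adjusted p = 0.00446 and 0.00828) and uncast legs by 0.61 at day 14 (adjusted p = 0.0337). At day 7 the differences from naive were 0.51 and 0.59 with adjusted p = 0.105 and 0.0522. Between tenotomy-cohort legs, the second Inhbb probe set gave -0.36, -0.16 and -0.11 at days 2, 7 and 14, opposite in sign to the one used. Its cast minus uncast differences were -0.03, 0.04 and 0.13.

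Of the antagonists, Fst encodes follistatin, which sequesters activins and myostatin. It was the member with the most calls, 5 of 6 leg comparisons. It was higher in the cast leg than in the uncast leg, and lower in the left than in the right leg of the tenotomy cohort.

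At day 14 of casting, the Fst signal ran from 116 through 124.5 to 164.1 in cast legs and from 57.4 through 88.0 to 98.3 in uncast legs. The groups did not overlap. The cast leg was higher by 0.66 (SE 0.155, adjusted p = 0.00142), 1.58-fold, in 9 of 9 mice.

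At day 7 of casting the signal ran from 80.2 through 117 to 152.8 in cast legs and from 64.4 through 69.0 to 103.4 in uncast legs. The groups overlapped. The difference was 0.61 (SE 0.171, adjusted p = 0.0112), with the cast leg higher in 7 of 7 mice. At day 2 it was 0.32 (SE 0.151, adjusted p = 0.126), higher in 7 of 9 mice and lower in the others.

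**Figure D3:**
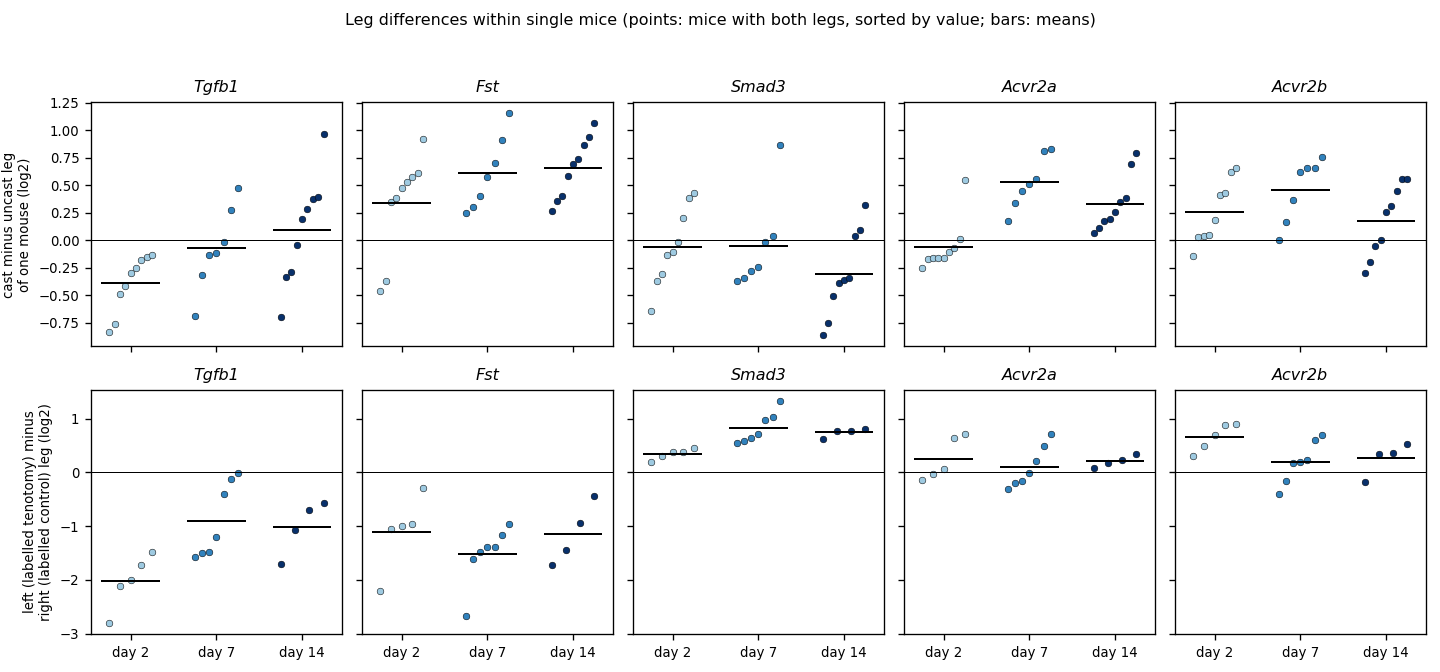
Leg difference within single mice (y axis, log2; each point is 1 mouse with both legs, sorted by value within a day, and each bar the mean) for 5 genes at days 2, 7 and 14; the upper row is cast minus uncast leg and the lower row left (labelled tenotomy) minus right (labelled control) leg. Fst points lie above 0 in 9 of 9 cast mice at day 14 and below 0 in all 16 tenotomy mice, and Smad3 points lie above 0 in all 16 tenotomy mice.

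In the tenotomy cohort at day 2, the right legs had Fst signals of 56.2, 78.7, 78.4, 88.6 and 61.5, and the left legs 49.3, 40.8, 9.02, 38.5 and 37.6. The groups lay apart, and 1 left leg (replicate 3) lay far below the others. The difference was -1.10 (SE 0.208, adjusted p = 5.34e-06), and -0.75 (adjusted p = 0.00139) without that array.

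At day 7 the Fst signal ran from 68.3 through 103.9 to 186.8 in right legs and from 25.9 through 34.8 to 60.6 in left legs. The groups did not overlap, with a difference of -1.52 (SE 0.176, adjusted p = 4.25e-12) and the left leg lower in 7 of 7 mice. At day 14 the right legs had 99.9, 84.0, 163.8, 144 and 60.2, and the left legs 28.2, 46.9, 50.1, 39.7 and 43.1. The groups again lay apart, with a difference of -1.25 (SE 0.210, adjusted p = 1.51e-06). The second Fst probe set gave -0.94, -1.33 and -1.70 at days 2, 7 and 14.

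Set against sham muscle, whose Fst signal was 31.7 to 81.4 over the 3 days, the right legs were higher at days 7 and 14 by 0.95 and 0.67 (adjusted p = 9.81e-06 and 0.00398). The left legs were lower, with differences of -0.58 at both days (adjusted p = 0.0169 and 0.0231). At day 2 the right legs differed by 0.54 and the left legs by -0.56, with adjusted p = 0.0876 and 0.159. The mean signals of the left and right legs lay on opposite sides of the sham mean at each day, and these comparisons share the sham arrays.

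Naive muscle had Fst signals of 36.1 to 55.1, below both legs of cast mice at every day without overlap. Uncast legs were higher than naive by 0.87, 0.74 and 0.89 and cast legs by 1.18, 1.35 and 1.54 at days 2, 7 and 14, with adjusted p of at most 7.55e-04. In the order of mean log2 signals, cast legs at days 14 and 7 came first (132 and 116), right legs of the tenotomy cohort at days 7 and 14 next (118 and 110.4), and left legs last.

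Fstl3, whose product is a secreted relative of follistatin, was measured at low signals and was above the array's 40th percentile in 75 of 111 arrays. At day 14 of tenotomy the right legs had signals of 28.5, 20.3, 36.2, 26.9 and 22.6, and the left legs 5.38, 18.3, 16.6, 4.53 and 3.49. The groups lay apart, and 2 of the 5 left arrays were above the 40th percentile. The difference was -1.30 (SE 0.292, adjusted p = 3.02e-04), or -0.77 with a pseudocount of 16, which shrinks differences between low signals.

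At day 2 the right legs had Fstl3 signals of 21.8, 25.2, 22.9, 12.8 and 33.2, and the left legs 11.3, 10.5, 12.9, 5.62 and 11.9. The groups overlapped by 1 array on each side. Of the 5 left arrays, 0 were above the 40th percentile. The difference was -0.89 (SE 0.290, adjusted p = 0.00910), lower in the left leg of 5 of 5 mice, and -0.55 with a pseudocount of 16. At day 7 it was -0.42 (adjusted p = 0.194).

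The right legs exceeded sham in Fstl3 by 1.30, 0.93 and 1.08 at days 2, 7 and 14 (adjusted p = 0.00177, 0.00183 and 7.78e-04), while the left legs differed from sham by 0.40, 0.51 and -0.22 with adjusted p = 0.550, 0.164 and 0.635. In sham muscle Fstl3 was above the 40th percentile in 1 of 3, 3 of 7 and 2 of 8 arrays at these days. Casting differences in Fstl3 were -0.32, -0.18 and -0.35, with adjusted p = 0.305, 0.767 and 0.316.

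Of the receptors, Acvr2a was higher in the cast leg at days 7 and 14 and its leg difference changed between days. At day 7 the Acvr2a signal ran from 431.5 through 518 to 595.3 in cast legs and from 323.6 through 359 to 452.4 in uncast legs. The groups overlapped by 1 array on each side. The cast leg was higher by 0.51 (SE 0.0890, adjusted p = 1.10e-05), 1.43-fold, in 7 of 7 mice.

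At day 14 the Acvr2a signal ran from 374.7 through 418 to 552.5 in cast legs and from 295.7 through 349 to 397 in uncast legs. The groups overlapped. The difference was 0.33 (SE 0.0808, adjusted p = 0.00192), higher in 9 of 9 mice. At day 2 it was -0.08 (adjusted p = 0.558), and the change from day 2 to day 14 was 0.41 (SE 0.113, adjusted p = 0.00646), a contrast called for 14.3% of all tested genes. The second Acvr2a probe set gave smaller differences, 0.21 at day 7 and 0.12 at day 14.

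The cast legs at day 7 were also the group with the highest Acvr2a level of all 16, with a mean of 529 against 440.0 in the next group, the cast legs at day 14. Naive muscle ran from 270.5 to 351.8. Between the legs of the tenotomy cohort the differences were 0.25, 0.11 and 0.20 at days 2, 7 and 14, with adjusted p = 0.0585, 0.415 and 0.187.

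Acvr2b, the receptor with the higher affinity for myostatin, was higher in the cast leg at days 2 and 7 and in the left tenotomy-cohort leg at day 2. At day 2 of tenotomy the left legs had Acvr2b signals of 145, 172.9, 178, 193.6 and 178.7, and the right legs 108, 95.5, 101, 121.8 and 116. The groups lay apart. The left leg was higher by 0.66 (SE 0.135, adjusted p = 2.57e-05) in 5 of 5 mice.

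The right legs at day 2 were lower in Acvr2b than sham, at -0.45 (adjusted p = 0.0243; 0.19 with all its probe sets averaged), and the left legs differed from sham by 0.21 (adjusted p = 0.480). At days 7 and 14 the left minus right differences were 0.19 and 0.22 (adjusted p = 0.195 and 0.250). At day 14 the left legs exceeded sham by 0.38 (adjusted p = 0.0232), with overlapping groups.

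In the casting cohort at day 7, Acvr2b ran from 93.6 through 135 to 147.1 in cast legs and from 79.8 through 93.7 to 128.9 in uncast legs. The groups overlapped, the lowest cast array lying well below the rest of its group. The cast leg was higher by 0.46 (SE 0.111, adjusted p = 0.00220) in 7 of 7 mice. At day 2 the difference was 0.26 (SE 0.0980, adjusted p = 0.0385) in 8 of 9 mice, a call that was lost without the animal block (adjusted p = 0.0525) or with it as a fixed term (adjusted p = 0.0705). At day 14 it was 0.18 (adjusted p = 0.259).

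The 3 Acvr2b probe sets disagreed. The other probe sets had mean signals of 20.1 and 3.23 against 129 for the one used, and their leg differences ran from -0.19 to 0.25. Averaged over all 3 probe sets, the Acvr2b difference was 0.07 at day 2 and 0.27 at day 7 of casting and 0.27 at day 2 of tenotomy, none past the threshold (adjusted p = 0.737, 0.167 and 0.130). This average includes the probe set with a mean signal of 3.23, which was above the array's 40th percentile in 1 of 111 arrays.

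Uncast legs were lower than naive muscle in Acvr2b, with differences of -0.74, -0.74 and -0.72 at days 2, 7 and 14 (adjusted p of at most 3.77e-07) with no overlap. Naive signals ran from 136.7 to 177.4 and uncast signals from 66.8 to 128.9 over the 3 days. Cast legs were lower than naive at days 2 and 14, at -0.47 and -0.54 (adjusted p = 2.27e-04 and 4.84e-05), and differed by -0.28 at day 7 (adjusted p = 0.0687). Cast legs thus lay between uncast and naive muscle in mean signal at each day.

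Smad3, the signal transducer shared by activins, myostatin and TGF-beta, differed between the legs of all 16 tenotomy mice with both legs, always higher on the left. At day 14 the left legs had Smad3 signals of 713, 621, 653, 658 and 668, and the right legs 421, 415, 360.0, 295 and 382. The groups lay apart. The left leg was higher by 0.82 (SE 0.143, adjusted p = 3.64e-06), 1.77-fold.

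At day 7 the Smad3 signal ran from 796 through 866 to 948 in left legs and from 362 through 519.8 to 645.5 in right legs, again without overlap. The difference was 0.83 (SE 0.120, adjusted p = 8.09e-09). At day 2 the left legs had 942, 948, 873, 840.3 and 921, and the right legs 673, 706, 681, 827 and 689. The groups lay apart by a narrow margin, set by 1 right leg (replicate 4) well above the others. The day 2 difference was 0.34 (SE 0.141, adjusted p = 0.0489), and it fell short of the threshold in 13 of 21 alternative settings, including 8 of the 10 that left out 1 array of these groups (adjusted p = 0.0641 to 0.0940).

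Against sham, the right legs were lower in Smad3, at -0.76 at day 7 and -1.27 at day 14 (adjusted p = 2.66e-07 and 1.21e-13), without overlap, and differed by -0.34 at day 2 (adjusted p = 0.120). The left legs differed from sham by 0.00 and 0.08 at days 2 and 7 (adjusted p = 0.999 and 0.737) and were lower, at -0.45, at day 14 (adjusted p = 0.00887). All 3 Smad3 probe sets had the same sign between the legs at every day, with differences at day 14 of 0.82, 0.87 and 0.96.

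Under casting, Smad3 ran from 473 through 722 to 1041 in cast legs and from 828 through 926 to 1119 in uncast legs at day 14, with overlap. The difference was -0.31 (SE 0.105, adjusted p = 0.0364), with the cast leg lower in 6 of 9 mice and higher in 3. The call was lost without the animal block (adjusted p = 0.0560), with only the compared groups in the fit (0.0914) and after quantile normalization (0.0674). At days 2 and 7 the differences were -0.10 and -0.06 (adjusted p = 0.581 and 0.855).

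Smad7, the inhibitory Smad, passed the test between legs at day 2 in both models, positive as left minus right and negative as cast minus uncast, and at neither later day. At day 2 of tenotomy the left legs had signals of 130.0, 149.5, 89.8, 110.2 and 112, and the right legs 62.4, 87.5, 74.5, 83.4 and 71.4. The groups lay apart, and the left leg was higher by 0.60 (SE 0.177, adjusted p = 0.00372) in 5 of 5 mice. At days 7 and 14 the differences were 0.24 and 0.02 (adjusted p = 0.229 and 0.960), but the change of the leg difference from day 2 to day 14 did not pass the test (-0.58, SE 0.252, adjusted p = 0.151). The second Smad7 probe set, with a mean signal of 16.4, gave a smaller left minus right difference at day 2, 0.24.

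At day 2 of casting, Smad7 ran from 59.96 through 95.6 to 118 in cast legs and from 74.6 through 114 to 174.9 in uncast legs, with overlap. The difference was -0.35 (SE 0.129, adjusted p = 0.0336), with the cast leg lower in 7 of 9 mice. The call was lost after quantile normalization (adjusted p = 0.0745), with only the compared groups in the fit (0.0587) and with all probe sets of a gene averaged (0.279). On the second Smad7 probe set the cast minus uncast difference was 4.2e-04.

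The leg differences of the 2 models were compared directly, as left minus right minus cast minus uncast, in the same fit. At day 2 this contrast passed for 5 of 9 members (background 34.9%), at day 7 for 4 of 9 (29.5%) and at day 14 for 5 of 9 (28.7%). Fst, Smad3 and Tgfb1 passed at all 3 days. The Fst contrast was -1.42, -2.13 and -1.91 (adjusted p = 2.96e-06, 7.44e-12 and 4.50e-09), cast minus uncast being positive and left minus right negative at each day. Model and cohort cannot be told apart in this contrast. Its values and calls hold for the legs as the samples are labelled, and it was not computed for the reading of the design text. Under that reading, the leg differences of Fst and Smad3 have the same sign in both models at each day. Those of Tgfb1 then have the same sign at day 14 and opposite signs at days 2 and 7.

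Of the 9 members, limma called 0 in sham against naive muscle at day 2, 0 at day 7 and 0 at day 14, where 0, 0.630 and 2.26% of all tested genes were called. At an unadjusted p under 0.05 the members were 2, 1 and 2, and over all tested genes 1120, 1455 and 2347. The member closest to a call was Fst at day 14, 53.3 to 81.4 in sham and 36.1 to 55.1 in naive muscle, higher by 0.54 (SE 0.179, adjusted p = 0.0862). At day 2, with 3 sham arrays, Acvr2a was 368 to 407 in sham and 270.5 to 351.8 in naive muscle, apart, with a difference of 0.34 (adjusted p = 0.531). Fstl3 had mean signals of 7.44 and 15.2, with overlap and a difference of -0.80 (adjusted p = 0.631).

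The right legs of the tenotomy cohort differed from sham in 3, 4 and 4 members at days 2, 7 and 14 (backgrounds 35.0, 41.2 and 35.9%), and the left legs in 0, 1 and 3 members (9.99, 19.1 and 20.7%). At day 2 the left legs had 2 members at an unadjusted p under 0.05. Uncast legs differed from naive muscle in 5, 4 and 4 members (27.9, 23.1 and 27.5%) and cast legs in 5, 3 and 6 (35.3, 30 and 36.6%). The comparisons against sham share the sham arrays of their day, and those against naive share the naive arrays.

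The rest of the pathway was described with 6 lists of other genes: ligands, receptors, binding proteins, Smads with their regulators, TGF-beta target genes and BMP target genes. These lists were chosen with earlier results of these data known, so their counts describe and do not test them. Some genes are in several lists: Tgif1 and Skil are Smad regulators and TGF-beta targets, and Smad6 and Bambi are also BMP targets. Some are also in the lists of cell type markers used below, such as Fmod, a binding protein and tenocyte marker. Between the legs of the tenotomy cohort the TGF-beta targets were lower on the left: 14, 14 and 12 of 20 at days 2, 7 and 14, with 0 higher at each day, where 20.8, 18.3 and 13.5% of all tested genes were lower. Their median difference was -1.19, -0.90 and -0.84, against -0.02, 0.00 and -0.02 over all tested genes.

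Among these targets, Postn, which encodes the matrix protein periostin, had mean signals of 185 in left and 3031 in right legs at day 2, and its differences were -4.22, -4.19 and -3.73 (adjusted p = 5.01e-15, 4.39e-18 and 1.28e-11). Timp1, an inhibitor of matrix metalloproteinases, differed by -3.48, -3.46 and -3.19. Fn1, which encodes fibronectin, differed by -2.78 at day 7, and Ccn2, a matricellular protein gene, by -2.20 at day 2. Mmp2, which encodes a matrix metalloproteinase, had mean signals of 423 in left and 2579 in right legs at day 14 and differed by -2.56 (adjusted p = 1.90e-21). Each was lower on the left in every mouse with both legs at those days.

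Against sham, 14, 14 and 13 of the 20 TGF-beta targets were higher in the right legs and 1, 0 and 0 lower (35.0, 41.2 and 35.9% of all tested genes called in either direction), while in the left legs 2, 2 and 3 were higher and 1, 0 and 2 lower (9.99, 19.1 and 20.7%). In the casting cohort the same list held 4, 1 and 3 higher and 5, 0 and 0 lower genes at days 2, 7 and 14 (24.3, 8.77 and 13.2%). Timp1 was lower in the cast leg at day 2, at -2.03 (adjusted p = 2.45e-07), and higher by 1.26 at day 14 (adjusted p = 0.00442). The list medians in casting were -0.10, 0.02 and 0.24, against -0.03, 0.01 and 0.04 over all tested genes.

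**Figure D4:**
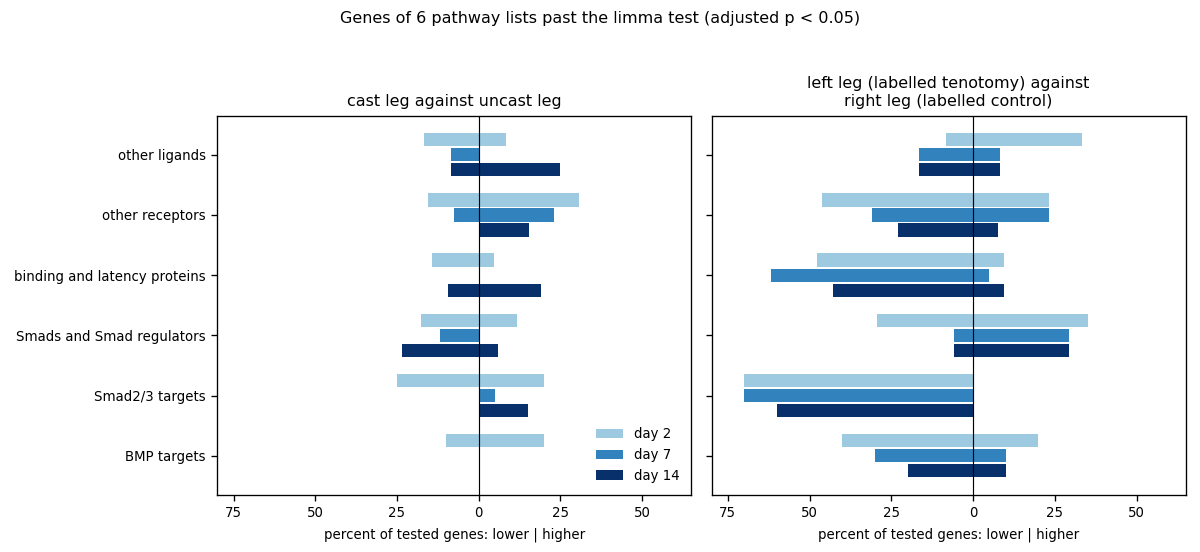
Genes of the pathway lists past an adjusted p of 0.05 (x axis, percent of the tested genes of the list, higher to the right of 0 and lower to the left) for each list (y axis) and each leg comparison at days 2, 7 and 14. The TGF-beta targets (drawn as Smad2/3 targets) reach 14 of 20 lower in the left leg (labelled tenotomy), with 0 higher.

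Of 21 binding proteins, 10, 13 and 9 were lower and 2, 1 and 2 higher in the left tenotomy-cohort leg at days 2, 7 and 14, where 36.7, 32.9 and 23.2% of all tested genes were called in either direction. The lower genes included Ltbp2, which encodes a latent TGF-beta binding protein, at -2.37, -2.67 and -2.34 (-1.45 at day 14 with a pseudocount of 16), and Bgn, which encodes the proteoglycan biglycan, at -2.28, -2.66 and -2.24. Thbs1, which encodes thrombospondin 1, an activator of latent TGF-beta, differed by -2.29, -1.86 and -1.91. Wfikkn2, whose product binds myostatin, was among the higher genes at all 3 days. In casting, 1, 0 and 4 genes of this list were higher and 3, 0 and 2 lower (24.3, 8.77 and 13.2% called over all tested genes), with Fstl1 at -0.63 at day 2 and 0.50 at day 14.

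Of 13 other receptors, 4, 3 and 2 were higher and 2, 1 and 0 lower in the cast leg, where 24.3, 8.77 and 13.2% of all tested genes were called in either direction. Tgfbr3, the TGF-beta co-receptor betaglycan, was higher in the cast leg by 0.67, 0.44 and 0.50 (adjusted p = 2.93e-09, 0.00139 and 4.31e-05) and lower in the left tenotomy-cohort leg, at -0.68, -0.77 and -0.54 (adjusted p = 2.68e-06, 1.93e-09 and 5.08e-04). Acvr1b, the type I receptor for activin, was higher in the cast leg by 0.92 at day 2 and 0.47 at day 7 (adjusted p = 3.37e-12 and 0.00338), and in the left tenotomy-cohort leg by 0.59 at day 2 (adjusted p = 3.70e-04). The day 7 call was lost when all probe sets of a gene were averaged, at 0.19 (adjusted p = 0.592). Tgfbr2, the type II receptor for TGF-beta, was lower in the left leg, at -0.75, -1.06 and -0.76 (adjusted p = 6.05e-07, 3.07e-14 and 1.96e-06). With probe sets averaged its differences were -0.30, -0.44 and -0.37 (adjusted p = 0.0757, 0.00111 and 0.0412), which lost the day 2 call. In that cohort 3, 3 and 1 receptors were higher and 6, 4 and 3 lower on the left, against a background of 36.7, 32.9 and 23.2%.

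Of 12 other ligands, 1, 0 and 3 were higher and 2, 1 and 1 lower in the cast leg (background 24.3, 8.77 and 13.2%), and 4, 1 and 1 were higher and 1, 2 and 2 lower in the left tenotomy-cohort leg (36.7, 32.9 and 23.2%). Gdf10, a BMP-like ligand, was lower on the left, at -1.25, -0.93 and -1.36 (adjusted p = 1.48e-06, 2.72e-05 and 9.75e-07). Inha, which encodes the inhibin alpha subunit, was higher in the cast leg by 0.51 at day 2 and 0.50 at day 14 (adjusted p = 0.00174 and 0.00718). Bmp4 was higher in the cast leg at day 14 by 0.69 (adjusted p = 1.34e-05).

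Of 17 other Smads and Smad regulators, 6, 5 and 5 were higher and 5, 1 and 1 lower in the left tenotomy-cohort leg (background 36.7, 32.9 and 23.2%), and 2, 0 and 1 were higher and 3, 2 and 4 lower in the cast leg (24.3, 8.77 and 13.2%). Smurf2, a ubiquitin ligase that acts on Smads and their receptors, was lower in the cast leg, at -0.38, -0.29 and -0.34 (adjusted p = 3.59e-05, 0.0156 and 7.70e-04). Smad1, a Smad of the BMP branch, was lower on the left, at -0.51 at days 7 and 14 (adjusted p = 5.81e-07 and 6.50e-05). Of 10 BMP targets, 2, 1 and 1 were higher and 4, 3 and 2 lower on the left, against the same background, with Id3, an inhibitor of basic helix-loop-helix factors, at -0.85, -0.47 and -0.70. In the cast leg 2, 0 and 0 BMP targets were higher and 1, 0 and 0 lower.

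Markers of some other cell types differed between the same legs. Of 12 macrophage markers, led in signal by Lyz2 and Csf1r, 12, 12 and 9 were lower in the left tenotomy-cohort leg at days 2, 7 and 14. Of all tested genes, 20.8, 18.3 and 13.5% were lower there. The summed signal of the macrophage markers was 11919 to 15539 in right and 895 to 1887 in left legs at day 2, 3659.9 to 9443 and 1001 to 2182 at day 7, and 2532 to 4430.4 and 1035 to 1584 at day 14, against 1567 to 2152 in naive muscle. In cast legs 9 of the 12 were lower at day 2, where 13.3% of all tested genes were lower. At day 14, 11 were higher, where 7.17% of all tested genes were higher. The sums at day 14 were 3571 to 7819 in cast and 2012 to 4249 in uncast legs. No macrophage marker was at 0 in naive muscle, where each of the 12 was above the 40th percentile in at least 6 of 7 arrays.

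Of 8 fibroblast markers, led by Dcn and Col1a1, 6, 8 and 7 were lower in the left leg at days 2, 7 and 14. Of all tested genes, 20.8, 18.3 and 13.5% were lower there. The summed signals of these markers at day 7 were 5920 to 14254 in left and 13224 to 24103 in right legs. Dcn is also in the list of binding proteins, and Col1a1 in that of TGF-beta targets. Of 6 tenocyte markers, 3, 6 and 5 were lower, and of 10 fibre genes 5, 3 and 0 were higher on the left. Of all tested genes, 15.9, 14.6 and 9.71% were higher on the left. The log2 ratio of 3' to 5' beta-actin probe sets, a measure of RNA integrity and labelling, averaged -0.83, -0.38 and -0.58 in left and -0.02, 0.11 and 0.08 in right legs, and -1.19 in naive muscle. The same ratio for Gapdh averaged -0.27, -0.28 and -0.25 in left and -0.25, -0.29 and -0.21 in right legs, and -0.19 in naive muscle. The part of these cell markers and of the actin and Gapdh ratios in the differences of Tgfb1, Fst, Fstl3, Smad3 and the pathway lists was not tested.

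The genes whose pattern was most like each member's were found by Pearson's r over the 16 group means of log2 signal, a description over groups that share mice and cohorts. For Tgfb1 they were Parp12, Ctsz and Msn (r = 0.975, 0.968 and 0.966), and for Fst they were Sox4, Cdr2l and Serping1 (0.956, 0.942 and 0.939). For Smad3 they were 1700001O22Rik, Spata2 and Trabd (0.943, 0.935 and 0.925), and for Acvr2b they were Man2a2, Synm and 5730455P16Rik (0.953, 0.937 and 0.923).

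The likeness was lower for the other members. For Acvr2a the genes were Usp46, Nabp2 and Nfe2 (0.868, 0.848 and 0.823), and for Smad7 they were Inpp5e, Six2 and Epn2 (0.831, 0.813 and 0.808). For Inhba they were Gimap4, Zbtb8a and Prkar1b (0.901, 0.893 and 0.875), for Inhbb Ap1g1, Gm41810 and Kcna1 (0.898, 0.893 and 0.889), and for Fstl3 Hey2, Selenon and Cald1 (0.889, 0.888 and 0.888). Between members, r over the 16 group means was 0.751 for Fstl3 and Tgfb1, 0.737 for Fst and Inhba, 0.723 for Fst and Tgfb1, and -0.740 for Acvr2b and Tgfb1.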

How the data were processed

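Total RNA from 111 gastrocnemius muscles was labelled as cRNA and hybridised to 1 Affymetrix array each, per the labels. The authors deposited linear intensity values per probe set, made with MAS5 and GCOS per the submitters' processing notes, with versions not given in the sources used here; the array number limits the precision. Of 45101 probe sets, 34958 had 1 gene symbol in the platform annotation, 932 several and 9211 none. Signals were used as log2(signal + 3.982), the offset being the 20th percentile of all signals. Genes above their array's 40th percentile in at least 5 arrays were kept. The 16 groups were fitted in 1 limma model (3.58.1, R 4.3.3) with the animal as a random block (correlation 0.0964) and an intensity trend, and p-values were Benjamini-Hochberg adjusted over 16029 genes within each of 26 comparisons at 0.05. Fold changes are on the log2(signal + offset) scale, which understates changes of low signals. Animal numbers in the labels pair the legs of 41 mice; deviations from group means correlated by 0.0634 on average within mice (13 of 41 over 0.1) and by -0.0099 over 260 pairs of different mice. The fit was tested on simulated data. Promoter windows came from RefSeq (GRCm38.p6), which had an entry for 8 of the 10 genes.

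The members and lists were chosen with earlier results of these data known. All members were named in every comparison; from each list and leg comparison the up to 3 genes with the largest difference past the threshold could be named, other names being listed where a count was 5 or fewer, and for each member the 3 most similar genes. Mstn is not reported here. Alternatives covered the block, array weights, pseudocount, filter, probe set choice, quantile normalization, the groups fitted and left-out arrays.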

Additional observations from a re-analysis of the deposited data

Results flagged for a closer look

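Of 135 sets of arrays (1 gene in 1 group of 4 to 10), 11 had an array far from the others by Dixon's criterion, where chance gives about 1 in 20. Left leg (labelled tenotomy) replicate 3 at day 2 was low in 3 genes: Fst at 9.02 (next array 37.6), Inhba at 6.11 (next 33.0) and Inhbb at 9.60 (next 39.6). In the same group replicate 4 was low in Fstl3 at 5.62 (next 10.5). Right leg replicate 4 at day 2 was high in Smad3 at 827 (next 706).

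In the casting cohort, cast replicate 3 at day 2 was high in Acvr2a at 549 (next 415) and cast replicate 1 at day 7 was low in Acvr2b at 93.6 (next 128). Uncast replicate 1 at day 7 was high in Fst at 103.4 (next 80.6) and low in Fstl3 at 8.76 (next 15.9). Uncast replicate 5 at day 7 was low in Smad3 at 491 (next 798), and uncast replicate 7 at day 14 was low in Inhbb at 18.3 (next 43.2).

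Of 45 tests of whether a leg difference differed between models or days, 16 passed in limma after adjustment over all genes. Between models (left minus right, minus cast minus uncast, for the legs as the samples are labelled only), the day 2 values were -1.66 for Tgfb1 (adjusted p = 2.72e-08), -1.42 for Fst (2.96e-06), 0.96 for Smad7 (1.95e-04), 0.44 for Smad3 (0.0414) and 0.33 for Acvr2a (0.0453). At day 7 they were -2.13 for Fst (adjusted p = 7.44e-12), 0.89 for Smad3 (7.64e-06), -0.78 for Tgfb1 (0.00686) and -0.41 for Acvr2a (0.00915). At day 14 they were -1.91 for Fst (adjusted p = 4.50e-09), 1.13 for Smad3 (2.15e-07), -1.06 for Tgfb1 (5.36e-04), -0.96 for Fstl3 (0.0364) and -0.80 for Inhba (0.0479). Between day 14 and day 2, the casting difference of Acvr2a changed by 0.41 (adjusted p = 0.00646) and the tenotomy-cohort difference of Tgfb1 by 1.06 (adjusted p = 0.00846).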

How the results depend on the processing

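Results were recomputed under 34 alternatives, 23 of which left out 1 array. The leg differences of Fst and Tgfb1 at all 3 days of tenotomy, of Smad3 at days 7 and 14, Fstl3 at days 2 and 14 and Smad7 at day 2, and those of Fst and Acvr2a at days 7 and 14 of casting, kept direction and call in every alternative run for them. The number of members called in the cast leg at day 2 was 2, and 1 with the animal as a fixed replicate block (Smad7), 1 without the replicate block (Smad7), 1 with all probe sets of a gene averaged (Tgfb1) and 1 after quantile normalization (Acvr2b); the cause was not tested. The pairing block moved no other leg comparison's count by over 1.5 times. Averaging probe sets changed the sign of many differences past the threshold in neither setting, such as Inhbb between tenotomy-cohort legs at days 2 and 7 (to -0.14 and -0.032). Among those past it in either setting it turned Acvr2a in right legs against sham at day 7 to -0.23 (adjusted p = 0.0361), Acvr2b in right legs against sham at day 2 to 0.19, Bmpr1b between tenotomy-cohort legs at day 7 to -0.083 and Tgfbr2 between casting legs at day 14 to -0.030. Leaving out 1 array gave 5 to 7 members called at day 2 of tenotomy (6 with all arrays) and 4 at day 14 each time. Low signals limit Fstl3 most.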
